A study of Mus musculus with 6 samples.

Results

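Transcripts of 10 glycolytic enzymes were followed in single cells of the fetal mouse intestine: Hk1, Hk2, Pfkl, Pfkp, Aldoa, Gapdh, Pgk1, Eno1, Pkm and Ldha. They were taken by symbol as a fixed list, and all 10 were among the 24568 gene symbols of the deposited matrix. The small intestine came from the Pdgfra-H2BGFP mouse line on the C57/BL6 strain, whose nuclear green fluorescent reporter follows Pdgfra, a receptor gene active in mesenchyme. All groups carry this reporter, and the replicate embryos of each age were pooled. The labels give 6 samples in 4 groups: all live cells at E15.5 and E16.5 (2 lanes), enriched cells at E15.5 and E16.5 (1 lane), all live cells at E13.5, E14.5 and E18.5 (2 lanes), and enriched cells at those ages (1 lane). Live cells were sorted as DAPI-negative and Ter119-negative. The enriched cells were CD31-positive, CD45-positive, Epcam-positive or high in PDGFRA-GFP, so an enriched lane mixes sorted populations in a ratio that the labels do not give. Cells had been marked with lipid-bound DNA barcodes (MULTI-seq) and captured for sequencing of transcript 3′ ends.

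Glycolysis turns glucose into pyruvate in the cytosol and yields ATP without oxygen. Hexokinases trap glucose as glucose 6-phosphate, phosphofructokinases commit the sugar to the pathway, and aldolase splits it into triose phosphates. The lower enzymes then carry the trioses to pyruvate, which lactate dehydrogenase can reduce to lactate. Embryonic tissues use the pathway heavily, and several of its genes are known targets of the hypoxia-inducible factors, which bind ACGTG or GCGTG cores of hypoxia response elements.

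The matrix held 1 pooled set of 13127 cells, whose barcodes carry 6 suffixes that no label ties to a sample, an age or a sort. The suffixes were therefore used as 6 technical sets: A1, A2 and A3 (suffixes -1, -2 and -3 of ending _1) and B1, B2 and B3 (the same of ending _2). After filtering 12630 cells remained, 1177 to 2514 per set, with median UMIs (unique molecular identifiers, 1 per captured transcript) of 7070 to 13574 in ending A and 3548 to 4182 in ending B. Of 13105 distinct barcode sequences, 22 occurred under 2 suffixes. There were no replicates, so no test was made, and every interval is a 95% interval for counting error only. Ending A had counts for 21283 symbols and ending B for 18178, with 17348 in both. The endings also differ in depth, and whether they were counted with different gene lists is not given in the sources used here. Levels are therefore compared within an ending. The sets were largely mesenchymal: the summed level of 6 mesenchyme markers was 3217 to 6429 counts scaled to 1000000 UMIs (CPM), with Col1a1 at 651 to 2783 CPM. Epcam reached at most 87.7 CPM, Pecam1 at most 26.0 CPM and Ptprc at most 7.75 CPM, each highest in A3 or B3.

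A3 and B3 stood apart from the other sets in the same features. After thinning each cell to 2000 UMIs, 2 or more Pdgfra UMIs were found in 56.1% of A3 cells, against 6.15% in A1 and 3.46% in A2, and in 21.6% of B3 cells, against 3.64% in B1 and 4.99% in B2. Cells without any UMI of 21 cycling genes made up 36.9% of A3 against 11.1% and 11.4%, and 51.3% of B3 against 26.1% and 28.5%. Transcripts of other cell types moved with the same sets. The summed level of 5 enterocyte transcripts was 2326 CPM in A3 against 492 and 472 CPM in A1 and A2, and 99.0% of thinned A3 cells had at least 1 such UMI. The 6 red cell transcripts summed to 3712 CPM in B3 against 1861 and 1790.07 CPM in B1 and B2, although the sort was for Ter119-negative cells. Of the red cell list, 1 gene in A1, 1 in A2 and 2 in A3, Alas2 among them in A3, were at 0. The summed markers of the other sorted populations were also highest in A3 and B3. The 7 epithelial markers stood at 364 CPM in A3 against 52.0 and 49.6 CPM, and at 115 CPM in B3 against 42.9 and 43.3 CPM, and 51.1% of thinned A3 cells had such a UMI. The 5 endothelial markers stood at 52.3 CPM in A3 against 6.38 and 6.30 CPM, and at 46.9 CPM in B3 against 17.4 and 15.3 CPM. Blood lineage markers (6) stood at 99.5 CPM against 13.0 and 16.3 CPM, and at 77.1 CPM against 36.7 and 32.9 CPM. The 6 smooth muscle markers were lower in sum, at 552 CPM against 1552 and 1593 CPM, and at 229 CPM against 1143 and 1126 CPM. Of these, Des was higher in A3, at 69.9 CPM against 40.2 and 41.0 CPM in A1 and A2. The part of these transcripts in the results below was not tested. Values for cells with few enterocyte or no red cell UMIs are given further below.

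Before the levels, the stretches of 250 bases upstream of the start sites are shown for 4 of the genes, from RefSeq (GRCm38.p6), because Hk2 and Pfkp had the highest ratios in the third sets of the enzymes at their steps, Ldha is the final enzyme, and Gapdh went the opposite way in ending A. Capitals mark ACGTG or GCGTG on either strand, so that CACGT and CACGC are the same letters read on the other strand, and CACGTG counts as 2 overlapping matches.
Hk2 (chr6:82774455-82774704, minus strand): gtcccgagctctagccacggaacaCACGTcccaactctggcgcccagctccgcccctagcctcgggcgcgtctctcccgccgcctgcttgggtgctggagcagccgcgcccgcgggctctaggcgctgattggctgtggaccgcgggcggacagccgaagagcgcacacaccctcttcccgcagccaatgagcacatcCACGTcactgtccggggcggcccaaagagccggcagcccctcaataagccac
Pfkp (chr13:6648772-6649021, minus strand): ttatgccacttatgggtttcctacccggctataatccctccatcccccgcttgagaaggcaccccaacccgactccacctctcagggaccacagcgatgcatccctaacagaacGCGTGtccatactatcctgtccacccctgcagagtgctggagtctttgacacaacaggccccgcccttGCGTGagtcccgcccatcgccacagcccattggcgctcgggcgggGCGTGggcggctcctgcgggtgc
Ldha (chr7:46845554-46845803, plus strand): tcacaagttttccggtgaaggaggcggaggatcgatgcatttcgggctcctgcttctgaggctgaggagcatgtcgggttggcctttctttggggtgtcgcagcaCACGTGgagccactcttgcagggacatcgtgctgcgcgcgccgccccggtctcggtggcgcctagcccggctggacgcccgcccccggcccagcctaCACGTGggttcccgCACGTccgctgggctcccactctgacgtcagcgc
Gapdh (chr6:125165774-125166023, minus strand): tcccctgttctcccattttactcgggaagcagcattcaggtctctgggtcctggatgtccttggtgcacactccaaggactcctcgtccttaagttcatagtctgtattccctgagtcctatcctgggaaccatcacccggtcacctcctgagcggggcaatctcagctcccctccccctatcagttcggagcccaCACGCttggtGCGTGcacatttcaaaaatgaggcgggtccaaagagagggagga
The Ldha stretch, the first of 2 listed for that gene, held 5 ACGTG matches, and the Hk2 stretch held 2. The Pfkp stretch held 3 GCGTG matches and that of Gapdh held 2. All 10 genes matched the RefSeq table, with 17 stretches between them. ACGTG occurred in 6 of the 17 stretches, those of Hk2, Aldoa, Pgk1, Pkm and Ldha, against 16.6% of all 32851 stretches in the table. GCGTG occurred in 8 (Hk1, Pfkl, Pfkp, Gapdh, Eno1 and Ldha), against 28.2%. A match describes letters only and is not evidence of a bound factor.

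The first comparison asked how each transcript differed between the third set and the other sets of the same ending. Hk1, Hk2 and Pfkp were at least 1.5-fold higher in both A3 and B3, while Gapdh, Pgk1, Eno1 and Pkm were lower in A3 and higher in B3. Aldoa and Ldha were higher in both, by less than 1.5-fold in A3. Thus the enzymes of the pathway did not move as 1 block.

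Hexokinase 1 is the broadly expressed form of the first enzyme. Hk1 stood at 17.8, 19.1 and 32.4 CPM in A1, A2 and A3, and at 17.6, 17.0 and 28.9 CPM in B1, B2 and B3. A3 and B3 were high, and their intervals did not overlap those of the other 4. The log2 ratio of the third set over the others was 0.81 (0.62 to 1.00) in ending A and 0.74 (0.50 to 0.98) in ending B.

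Hexokinase 2 is the inducible form of the same step, found on the outer mitochondrial membrane and high in many fetal and growing tissues. The A1, A2 and A3 levels of Hk2 were 71.8, 52.3 and 155 CPM, and those of B1, B2 and B3 were 186, 179.5 and 329.5 CPM. In each ending the third set was the highest. The log2 ratio was 1.31 (1.22 to 1.40) in ending A and 0.85 (0.78 to 0.92) in ending B. A1 and A2 also differed from each other, with a log2 ratio of A2 over A1 of -0.46 (-0.55 to -0.36), smaller than either step to A3 (1.11 over A1 and 1.57 over A2). At equal depth, 24.4% of A3 cells had an Hk2 UMI against 12.5% and 9.56%, and 42.3% of B3 cells against 28.8% and 27.6%. These enzymes serve every cell, so no cell type lacking them was at hand to measure the share that free RNA gives.

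The 2 hexokinases were not in the same proportion in all sets. Hk2 made up 80.1% of the UMIs of both genes in A1 (95% Clopper-Pearson interval 78.6 to 81.6), 73.2% in A2 and 82.7% in A3. In ending B the share was 91.3%, 91.4% and 91.9%, so B3 lay within the intervals of B1 and B2.

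**Figure D1:**
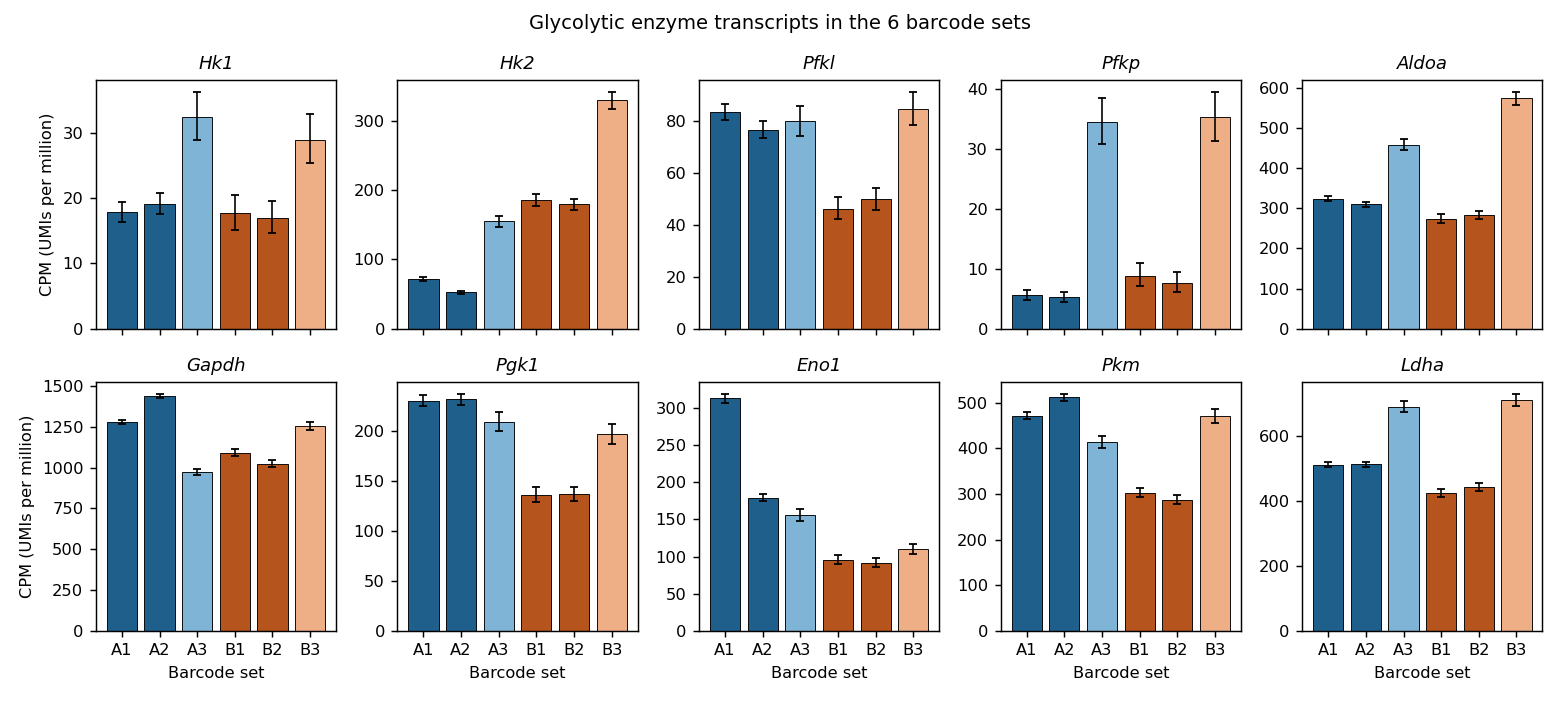
Level of the 10 glycolytic enzyme transcripts in the 6 barcode sets. Each bar is a set (horizontal axis), its height the CPM summed over the cells kept (vertical axis, a scale of its own for each gene, starting at 0), error bars are 95% Poisson intervals, blue marks ending A and orange ending B, with the third sets paler. Hk1, Hk2, Pfkp, Aldoa and Ldha are tallest in the third set of each ending, whereas Eno1 falls from 313 CPM in A1 to 179 CPM in A2.

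Phosphofructokinase catalyses the committed step and exists as liver (Pfkl), platelet (Pfkp) and muscle (Pfkm) forms. Pfkp showed the highest ratios of the 10 genes. Its level was 5.60, 5.26 and 34.5 CPM in A1, A2 and A3 and 8.87, 7.68 and 35.2 CPM in B1, B2 and B3. The third sets were far above the others, with log2 ratios of 2.66 (2.44 to 2.89) and 2.096 (1.82 to 2.38), or 6.34-fold and 4.28-fold. Hk1 and Pfkp reached the minimum of 20 CPM only in the third sets, so a difference for them was needed for entry among the 7765 genes compared.

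Pfkl stood at 83.5, 76.7 and 79.9 CPM in A1, A2 and A3, and at 46.2, 49.99 and 84.9 CPM in B1, B2 and B3. A3 lay between A1 and A2, with a log2 ratio of -0.01 (-0.12 to 0.11), while B3 was the highest of its ending, at 0.82 (0.67 to 0.96). In cells thinned to 2000 UMIs, where each cell weighs the same, the ratio in ending A was 0.37 (0.15 to 0.59). Pfkp made up 6.29% of the UMIs of both forms in A1, 6.41% in A2 and 30.1% in A3 (27.4 to 33.0). The share was 16.1% in B1, 13.3% in B2 and 29.3% in B3 (26.5 to 32.3), higher in the third set of each ending. Pfkm, which is no member of the list, took 18.3% and 18.9% of the UMIs of the 3 forms in A1 and A2 and 13.2% in A3, and 16.1%, 18.2% and 11.9% in ending B.

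Aldolase A splits fructose 1,6-bisphosphate. Aldoa measured 323, 309 and 458 CPM in A1, A2 and A3, and 274, 283 and 573 CPM in B1, B2 and B3. The third set was the highest in each ending, with log2 ratios of 0.53 (0.48 to 0.58) and 1.04 (0.98 to 1.10). A second Aldoa row of the matrix held at most 6 UMIs in any set and was left out.

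Glyceraldehyde 3-phosphate dehydrogenase, the step that makes NADH, is widely used as a reference gene. Ending A had Gapdh at 1283 CPM (A1), 1440.3 CPM (A2) and 973 CPM (A3), and ending B at 1093 CPM (B1), 1026 CPM (B2) and 1256 CPM (B3). A3 was the lowest set of its ending and B3 the highest of its own. The log2 ratio was -0.48 (-0.51 to -0.45) in ending A and 0.25 (0.21 to 0.28) in ending B. Expressed relative to Gapdh, any other transcript would therefore change its ratio between these sets.

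Phosphoglycerate kinase 1 makes the first ATP of the pathway. Pgk1 was at 231, 232 and 209.8 CPM in A1, A2 and A3, and at 136, 137 and 197 CPM in B1, B2 and B3. The log2 ratio was -0.14 (-0.21 to -0.07) in ending A and 0.53 (0.44 to 0.62) in ending B. The small difference in ending A depended on the weighting of cells: in thinned cells it was 0.00 (-0.14 to 0.14).

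Enolase 1 forms phosphoenolpyruvate. Eno1 measured 313, 179 and 155 CPM in A1, A2 and A3, and 95.6, 91.6 and 109.9 CPM in B1, B2 and B3. A1 stood far above A2, and A3 lay closer to A2 than to A1. The log2 ratio of A3 over both together was -0.68 (-0.76 to -0.60), but it was -1.01 over A1 and -0.21 over A2, so A1 decides its size. In ending B it was 0.23 (0.12 to 0.35).

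The difference between A1 and A2 was unusual among genes. The log2 ratio of A2 over A1 for Eno1 was -0.81 (-0.85 to -0.76), and only 0.708% of 7765 genes were 1.5-fold lower and 0.258% higher in A2 than in A1. Between B1 and B2 these shares were 0.206% lower and 0.399% higher in B2, and 0 of the 10 enzymes were among them. It held in each class of cycling UMIs, from -1.07 to -0.73, and in each class of Pdgfra UMIs, from -0.84 to -0.75. Genes with near-identical copies were among the others that passed, such as Hist1h2ap (784 CPM in A1 and 93.8 CPM in A2), which was picked here after its values were seen. Eno1b, a near-identical copy of Eno1, had 11.8 CPM in A1 and 15.2 in A2, and with its UMIs added the ratio was -0.74 (-0.79 to -0.69). Whether A1 and A2 were counted with the same settings, and for which enolase copy a read was counted, is not given in the sources used here, so every Eno1 ratio that uses A1 carries this limit, and the part of the copies in the Eno1 difference was not tested.

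Pyruvate kinase M makes pyruvate and the second ATP. Pkm stood at 471, 512 and 415 CPM in A1, A2 and A3, and at 303, 288 and 472 CPM in B1, B2 and B3. A3 was the lowest of ending A, with a log2 ratio of -0.24 (-0.29 to -0.19), and B3 was the highest of ending B, with 0.68 (0.62 to 0.74). Counts of 3′ ends do not separate the PKM1 and PKM2 forms, which share these ends.

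Lactate dehydrogenase A reduces pyruvate to lactate. The level of Ldha was 512 CPM in A1, 513 CPM in A2 and 691 CPM in A3, and in ending B 425 CPM (B1), 443 CPM (B2) and 713 CPM (B3). A1 and A2 were alike and A3 lay above both, with a log2 ratio of 0.43 (0.39 to 0.47), and in ending B it was 0.71 (0.67 to 0.76). Ldhb, the form that prevails in oxidative tissues, made up 21.04% and 22.6% of the UMIs of both genes in A1 and A2 and 9.14% in A3 (8.48 to 9.84). In ending B its share was 14.1%, 12.8% and 11.1%. Ldhb itself went from 136 and 149.7 CPM in A1 and A2 to 69.6 CPM in A3, but stood at 69.8, 64.9 and 88.8 CPM in ending B.

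Summed over the 10 genes, the level was 3312, 3339 and 3203 CPM in A1, A2 and A3, and 2586, 2522 and 3799 CPM in B1, B2 and B3. The 3 sets of ending A were close together, whereas B3 stood above B1 and B2. The log2 ratio was -0.05 (-0.07 to -0.04) in ending A and 0.57 (0.55 to 0.59) in ending B. Gapdh alone carries more UMIs than any other member, and without it the ratio in ending A became 0.18 (0.16 to 0.20). The sign of the sum in ending A thus rests on Gapdh, and it was 0.06 (0.03 to 0.10) in thinned cells with all 10 genes.

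In counts, 3 of 10 genes were at least 1.5-fold higher in A3 (Hk1, Hk2 and Pfkp), where 17.2% of the 7765 genes with 20 CPM or more in 1 set were, and 1 was as much lower (Eno1), where 15.8% were. In B3 the numbers were 7 higher (all but Gapdh, Pgk1 and Eno1), against 20.3% of genes, and 0 lower, against 11.8%. Hk1, Hk2 and Pfkp were higher in both endings, where 13.1% of genes were, and 0 were lower in both, where 8.47% were. Hk1 and Pfkp reached 20 CPM only in the third sets, so a difference was needed for their entry. Their calls therefore support nothing, which leaves Hk2. The counts and medians of the 10 given here include both genes. Placed above each of the other sets in both endings were 5 of the 10, where 36.1% of all genes were. The median log2 ratio of the 10 was 0.21 in ending A and 0.73 in ending B, beside -0.05 and 0.10 over all genes tested. The pattern of Gapdh, Pgk1, Eno1 and Pkm, below both others in A3 and above both in B3, was shared by 12.6% of genes.

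**Figure D2:**
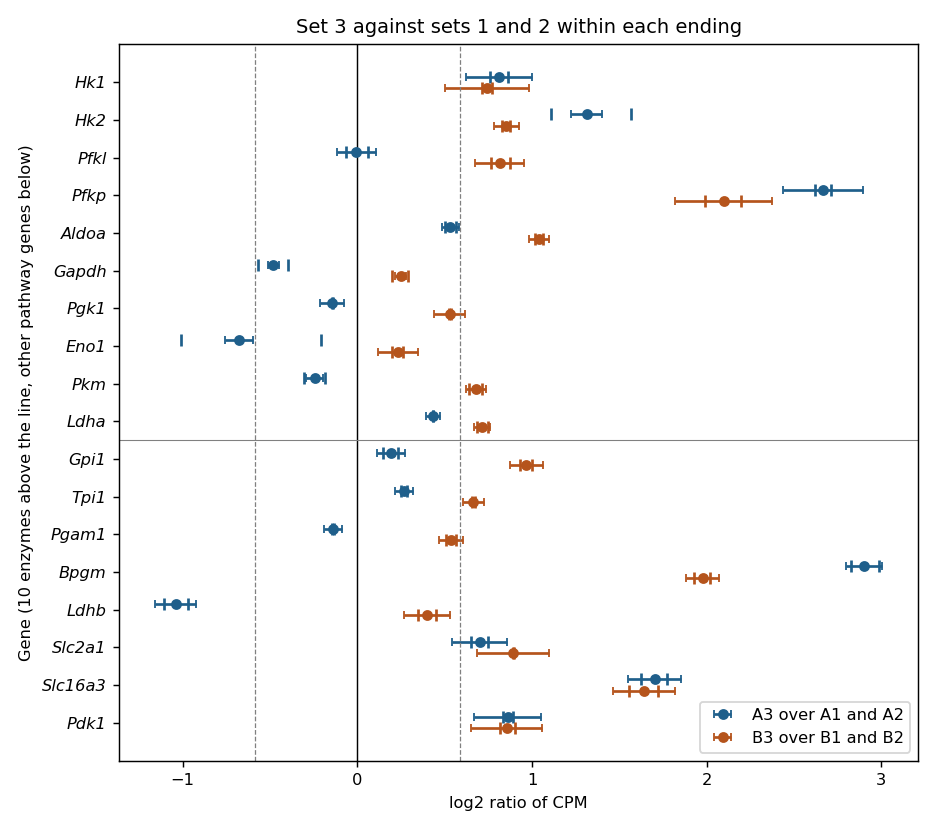
Log2 ratio of CPM in the third set over the first and second of the same ending (horizontal axis) for the 10 enzymes and 8 further genes of the pathway (vertical axis). Blue is ending A and orange ending B, horizontal bars are 95% intervals for counting error, short vertical ticks are the ratios over each other set alone, and dashed lines mark 1.5-fold. Pfkp lies farthest to the right of the 10 enzymes (2.66 and 2.096), and the blue points of Gapdh, Pgk1, Eno1 and Pkm lie left of 0.

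Other genes around the pathway were taken from lists. Among other glycolysis genes, 19 of 20 listed were in the matrix and 6 reached 20 CPM, of which 0 were at least 1.5-fold lower in both A3 and B3. Bpgm was higher by more than that in both. Bpgm, whose product makes 2,3-bisphosphoglycerate and is known from red cells, stood at 25.4, 22.7 and 179.9 CPM in ending A and 72.5, 68.0 and 276 CPM in ending B, log2 ratios of 2.90 (2.80 to 3.00) and 1.98 (1.88 to 2.07). The part of red cell RNA in this difference was not tested. Red cell transcripts summed to 25.3, 32.6 and 36.2 CPM in A1, A2 and A3, and to 1861, 1790 and 3712 CPM in B1, B2 and B3.

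Of 7 transport and control genes at 20 CPM, 3 were higher in both A3 and B3, where 13.1% of all genes were, and 0 lower in both, where 8.47% were. The glucose carrier Slc2a1 was at 26.8, 28.7 and 45.1 CPM in ending A and 21.9, 22.1 and 40.8 CPM in ending B. The lactate exporter Slc16a3 was at 17.2, 19.0 and 58.7 CPM and 24.1, 21.5 and 71.0 CPM. Pdk1, a kinase that inhibits pyruvate dehydrogenase, was at 17.1, 16.4 and 30.5 CPM and 21.9, 23.3 and 41.0 CPM. The log2 ratios were 0.70 and 0.89 for Slc2a1, 1.70 and 1.64 for Slc16a3, and 0.86 and 0.86 for Pdk1. The other 4 were not past 1.5-fold the same way in both endings.

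Among 19 hypoxia-responsive genes at 20 CPM, 10 were at least 1.5-fold higher in both A3 and B3 (13.1% of all genes were) and 0 lower in both, with a median log2 ratio of 0.83 in ending A and 0.75 in ending B. Epas1, Bhlhe40, Egln3 and Ankrd37 reached 20 CPM only in A3 or B3, so a difference was needed for their entry and they support nothing. Of the 15 genes that also reached it in another set, 6 were higher in both. The share of all genes under that stricter entry was not counted. Both medians include the 4 genes that entered through A3 or B3 alone. The list holds genes that respond to low oxygen in many cells and to other signals as well. The genes named by the rule, those with the highest smaller ratio, were Epas1 (4.03 and 2.21), Bhlhe40 (1.64 and 1.60), Vegfa (2.20 and 1.57) and Ndrg1 (2.48 and 1.56). Vegfa, the endothelial growth factor, stood at 46.5, 46.2 and 213 CPM in ending A and 81.2, 88.5 and 253 CPM in ending B. Epas1, which encodes HIF-2 alpha and is also known from endothelium, was at 2.04, 2.44 and 36.5 CPM and 3.09, 3.12 and 14.4 CPM. Hif1a, named here after its value was seen, had ratios of 0.06 (-0.04 to 0.16) and 0.08 (-0.05 to 0.21).

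The counts of the remaining lists stand beside 13.1% of all genes higher and 8.47% lower in both endings. In the pyruvate dehydrogenase and citrate cycle list, 0 of 21 genes were 1.5-fold higher or lower in both endings, with medians of -0.17 and 0.03. Of 6 pentose phosphate genes, 1 (Rpia) was higher in both, at 1.197 and 0.60, and of 2 gluconeogenesis genes at 20 CPM, 1 (Fbp2) was, which entered only through A3 (27.9 CPM, at most 5.1 CPM elsewhere). Of 3 Myc and mTOR genes, 2 were lower in both. Myc, a transcription factor known to act on many glycolytic genes, had ratios of -1.55 and -1.27, and Mycn of -1.85 and -0.74. All 21 cycling genes were lower in both A3 and B3, with medians of -1.23 and -1.39. Of 9 dissociation and stress genes, 3 (Fosb, Hspa1a and Hspa1b) were higher in both, Hspa1b entering only through A3, and the part of tissue handling in the results was not tested.

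The third sets were rich in cells with Pdgfra UMIs, and the level was therefore set against Pdgfra within each set, in cells thinned to 2000 UMIs. Hk2 was the only one of the 10 genes at least 1.5-fold higher in cells with 2 or more Pdgfra UMIs than in cells with 0, with a log2 ratio of 0.73 (0.61 to 0.86) by Mantel-Haenszel over the 6 sets. Such a ratio was reached by 3.94% of all genes, and 0 of the 10 were as much lower, against 5.36%. Eno1 (0.36), Aldoa (0.29), Ldha (0.26) and Pkm (0.21) were higher by less, with intervals above 0. Gapdh was at -0.08 (-0.14 to -0.02), and the intervals of Hk1 (0.37), Pfkl (0.18), Pfkp (0.18) and Pgk1 (0.01) included 0. By set, the Gapdh interval left out 0 only in A3, at -0.28 (-0.43 to -0.13).

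The 2 endings differed in this. In B1, Hk2 went with Pdgfra class from 171 CPM at 0 UMIs to 268 at 1 and 481 at 2 or more, and in B2 from 158 to 249 and 456 CPM. In B3 the values were 287, 359 and 413 CPM. In A3 they were 131, 166 and 162 CPM, and in A1 67.2, 81.9 and 89.4 CPM. A2 had 51.0 and 56.8 CPM and, from 4 UMIs in 72 cells, 27.8 CPM in the highest class. The log2 ratio was 1.49 (1.13 to 1.84) in B1, 1.53 (1.23 to 1.82) in B2 and 0.52 (0.34 to 0.71) in B3, whereas all 3 intervals of ending A included 0.

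The sum of the 10 genes had a log2 ratio of 0.16 (0.13 to 0.20) over the 6 sets. It was 0.64 in B1, 0.50 in B2 and 0.10 in B3, each with an interval above 0, and 0.06, 0.02 and 0.05 in A1, A2 and A3, each with an interval that included 0. Within Pdgfra classes the ratio of B3 over B1 and B2 was 0.50 (0.47 to 0.53), beside 0.59 in the same thinned cells without classes, and for Hk2 it was 0.53 beside 0.82. In ending A the Hk2 ratio was 1.19 (0.94 to 1.44) within Pdgfra classes and 1.33 without them. By class, Hk2 was highest in A3 in each Pdgfra class of ending A. In ending B it was highest in B3 at 0 and at 1 Pdgfra UMIs. At 2 or more it was 413 CPM in B3, below 481 CPM in B1 and 456 CPM in B2, with overlapping intervals. The part of Pdgfra level in the Hk2 difference was not tested.

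**Figure D3:**
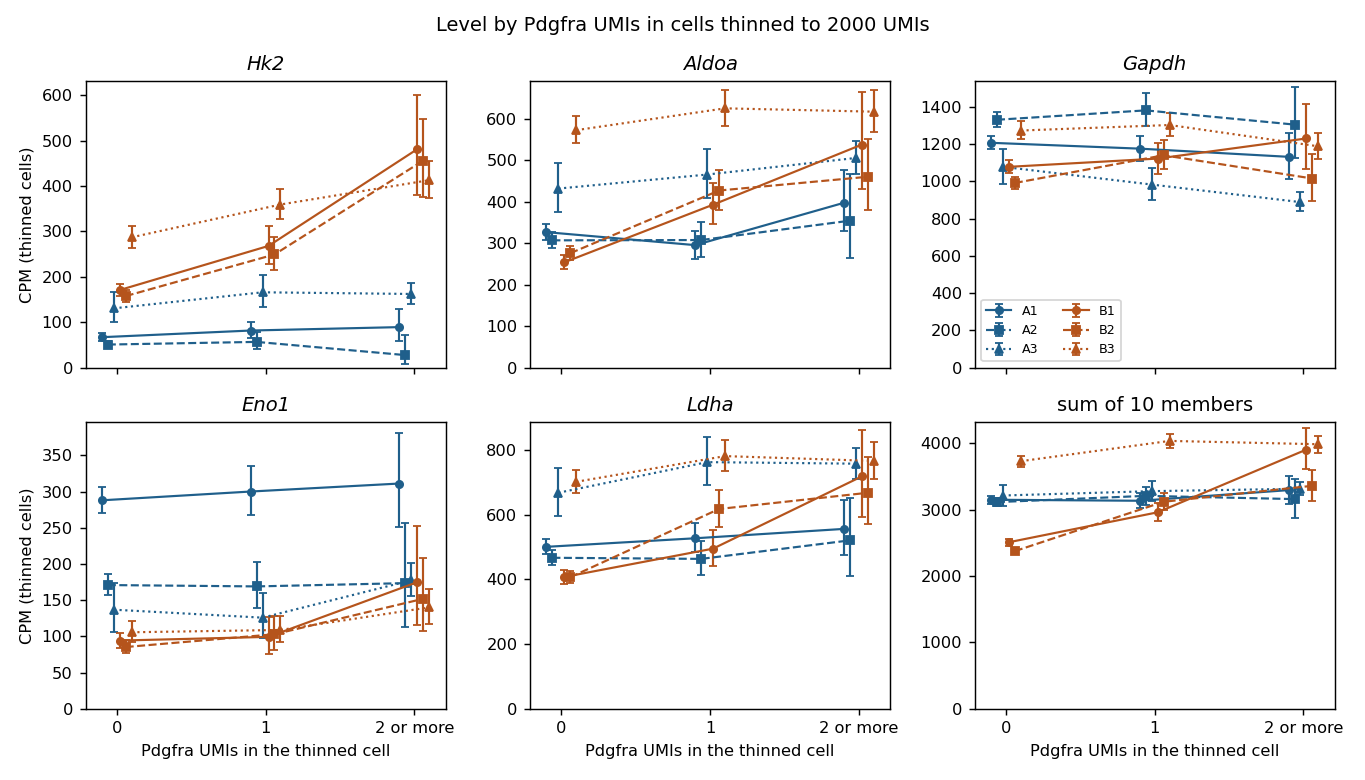
Level in thinned cells (CPM, vertical axis from 0) by the number of Pdgfra UMIs in the cell (horizontal axis, 0, 1 and 2 or more) for 5 enzymes and the sum of all 10. Each line is a barcode set, blue for ending A and orange for ending B, with 95% Poisson bars. The lines of Hk2 in B1 and B2 climb from 171 and 158 CPM to 481 and 456 CPM, whereas the Gapdh line of A3 declines from 1079 to 889 CPM.

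Cycling cells were compared in the same way, as cells with 4 or more UMIs of the 21 cycling genes against cells with 0. The 10 genes did not share a direction. Gapdh was higher in cycling cells in 6 of 6 sets, with a log2 ratio of 0.30 (0.24 to 0.35), and Pkm (0.20, 0.10 to 0.29) and Pgk1 (0.17, 0.04 to 0.31) were higher over the sets together. Pfkp and Aldoa were lower in 6 of 6 sets, at -0.96 (-1.47 to -0.45) and -0.67 (-0.77 to -0.57). Intervals of single sets left out 0 in 4 sets for Gapdh, 1 for Pfkp and 4 for Aldoa. How many of all genes kept 1 direction in 6 sets was not counted. Hk2 (-0.79), Hk1 (-0.62) and Ldha (-0.26) were lower over the sets together. Pfkl (0.05, -0.18 to 0.28) and Eno1 (-0.06, -0.20 to 0.09) had intervals that included 0. Of the 10, Hk1, Hk2, Pfkp and Aldoa (4 genes) were at least 1.5-fold lower, where 11.3% of all genes were, and 0 were as much higher, where 10.6% were.

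The direction of Hk2 was not the same in every set. From 0 to 1 to 3 to 4 or more cycling UMIs it went from 272 to 195 to 137 CPM in B1, from 226 to 209.9 to 117 in B2, from 372 to 316 to 187 in B3 and from 189 to 147 to 102 in A3. In A1 the values were 55.1, 73.5 and 73.8 CPM and in A2 31.6, 57.4 and 51.5 CPM. The log2 ratio was -0.996 to -0.89 in A3 and the 3 sets of ending B, and 0.42 (-0.14 to 1.03) and 0.70 (-0.08 to 1.58) in A1 and A2. Ldha split the same way, with 0.26 and 0.35 in A1 and A2 and -0.78 to -0.34 in the other 4 sets, all 6 intervals leaving out 0.

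Pkm differed most between cycling classes in A1, with 257 CPM at 0 cycling UMIs, 411 at 1 to 3 and 498 at 4 or more, a log2 ratio of 0.95 (0.70 to 1.21). In A2 it was 0.61 (0.38 to 0.85), while A3, B1 and B2 had intervals that included 0 and B3 was at -0.29 (-0.58 to -0.01). Gapdh in A2 went from 947 to 1195 to 1503 CPM, and in B2 from 976 to 1017 to 1049.9 CPM.

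For the sum of the 10 genes these directions cancelled over the 6 sets, at -0.02 (-0.05 to 0.01). Cycling cells were higher in A1, at 0.41 (0.33 to 0.49), and in A2, at 0.50 (0.41 to 0.59). They were lower in A3 (-0.16), B1 (-0.23), B2 (-0.24) and B3 (-0.35), each with an interval below 0. In A1 the sum stood at 2546 CPM in cells with 0 cycling UMIs and 3377 CPM in those with 4 or more, and in B3 at 4036 and 3162 CPM. The difference in direction between sets was not tested. A1 and A2 were also the deepest sets and those with the fewest non-cycling cells (272 and 237).

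**Figure D4:**
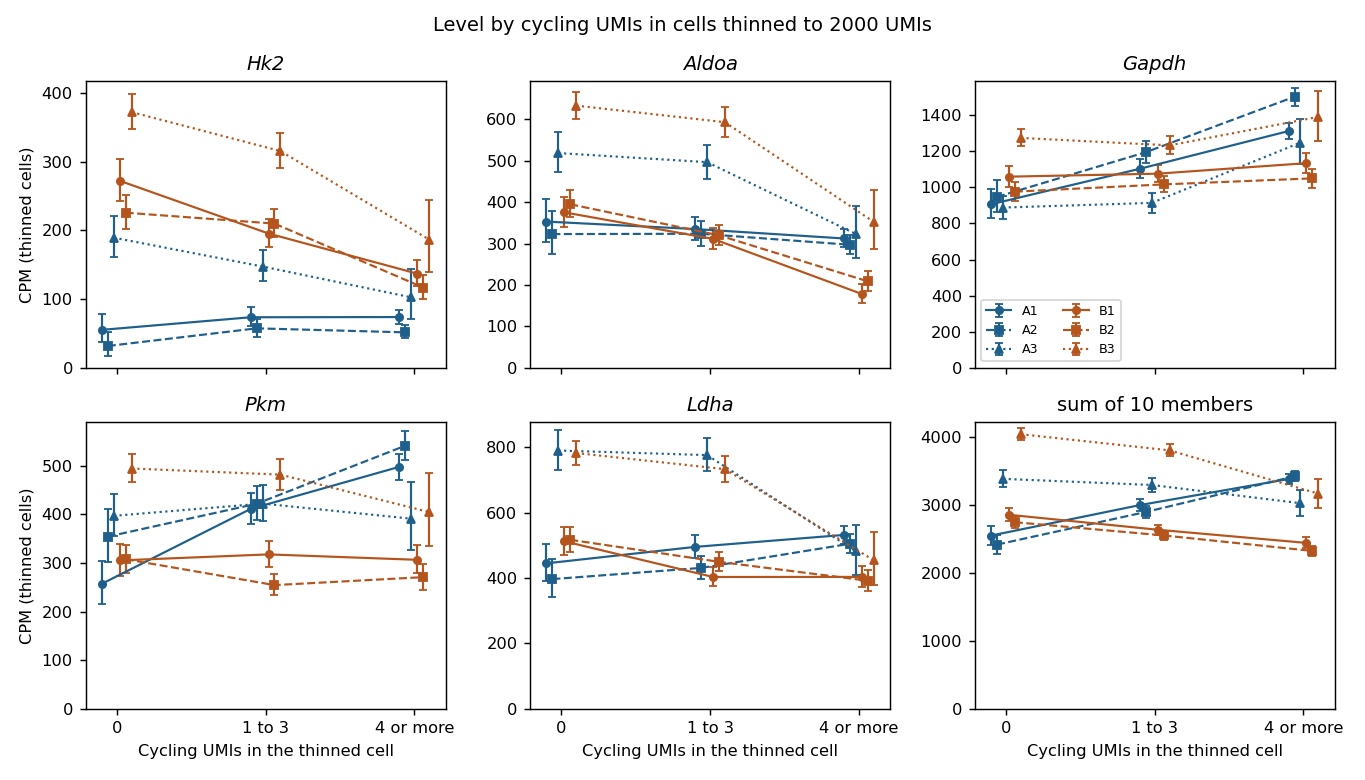
Level in thinned cells (CPM, vertical axis from 0) by the number of cycling UMIs in the cell (horizontal axis, 0, 1 to 3 and 4 or more) for 5 enzymes and the sum of all 10. Each line is a barcode set, blue for ending A and orange for ending B, with 95% Poisson bars. In the panel of the sum the lines of A1 and A2 climb, from 2546 to 3377 CPM in A1, and those of the other 4 sets decline.

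Since the third sets held fewer cycling cells, their ratios were also taken within cycling classes. In ending B the sum changed little, from 0.59 in thinned cells to 0.53 (0.50 to 0.56) within classes. In ending A it went from 0.06 to 0.17 (0.13 to 0.21), and among cells with 0 cycling UMIs alone it was 0.44 (0.37 to 0.52), close to the 0.53 (0.49 to 0.58) of ending B. In those cells Pgk1 was higher in A3 by 0.57 (0.28 to 0.86), Pkm by 0.39 (0.17 to 0.61), Pfkl by 0.79 (0.30 to 1.29) and Ldha by 0.90 (0.73 to 1.08). Gapdh (-0.06, -0.20 to 0.08) and Eno1 (-0.22, -0.53 to 0.09) had intervals that included 0. The opposite directions of Pgk1 and Pkm between the endings were therefore not seen in non-cycling cells. Cells with 4 or more cycling UMIs went the other way in ending A. Their sum was 3022 CPM in A3, against 3377 and 3417 CPM in A1 and A2. Pkm was at 391 CPM in A3 in that class, against 498 and 542 CPM. The ratio of 0.17 thus combines classes with opposite directions. In B3 the sum in that class was 3162 CPM, above 2438 and 2320 CPM in B1 and B2. Hk1, Hk2 and Pfkp had ratios above 0 within cycling classes in both endings, at 0.99, 1.35 and 2.28 in ending A and 0.75, 0.61 and 1.72 in ending B. Hk1 and Pfkp reached the minimum level only in the third sets, so their ratios are no support.

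Ratios were also taken in cells with few enterocyte or no red cell transcripts. Among thinned A cells with 2 or fewer enterocyte UMIs, 190 of them in A3, the ratio of the sum was 0.06 (-0.02 to 0.14), with Hk2 at 1.58, Pfkp at 2.02 and Hk1 at 1.31. Hk1 and Pfkp reached the minimum level only in the third sets, so their ratios support nothing here. The cells kept could still hold up to 2 enterocyte UMIs, and transcripts of other cell types were not limited. The part of such RNA in the ratios was not tested. Only 14 B3 cells had no red cell UMI, and in these the sum had a ratio of 0.56, too few cells for single genes.

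Across the cells of a set, correlations between the 10 transcripts were weak at this depth. Sparse counts weaken r, so these values cannot show whether the transcripts vary independently. In 26 of 45 pairs r was above 0 in all 6 sets. Over the 45 pairs the median Pearson r of log2(thinned UMIs + 1), taken over the 6 sets, ranged from -0.01 to 0.14, with the highest for Gapdh and Ldha. Mif, which encodes a cytokine and is on the hypoxia-responsive list, was most like the sum of the 10, with r of 0.13 to 0.30 over the 6 sets. It ranked first of 4782 genes, followed by Fabp5, Nrg1, H19 and Hoxc8, with median r of 0.09, 0.07, 0.07 and 0.07. Cells of a set share their library and depth, and correlations this weak in sparse counts single out no gene. Mif itself was lower in the third sets, with log2 ratios of -0.69 and -0.17.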

How the data were processed

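Single-cell RNA of 6 samples was deposited by the authors as 1 matrix of raw UMI counts per gene symbol and cell, 100735249 UMIs in all, per the file headers and its whole-number values. Cell Ranger 2.1.1, Seurat and mm10 are named per the submitters' processing notes, without their roles. Symbols, not identifiers, name the rows, and how reads of near-identical copies (of Eno1, Gapdh, Aldoa and Ldha) were assigned is not given in the sources used here. No label ties a barcode suffix to a sample, so the suffixes served as technical sets and no sample, age or sort was assigned. The genes and lists were chosen with earlier results of these data known.

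Cells with fewer than 1000 genes (108) or over 5% mitochondrial UMIs (367) were left out, as were 60 doublets called by Scrublet in scanpy 1.11.5 at an expected rate of 5%. That is 0.457% of cells, under the 0.5% below which the call is not relied on, so doublets may remain. CPM are the summed UMIs of a gene in a set over those of all genes. Ratios carry exact conditional binomial 95% intervals, levels exact Poisson and shares Clopper-Pearson 95% intervals (scipy 1.17.1), all for counting error only. Levels by Pdgfra or cycling UMIs, and shares of cells, used cells thinned without replacement to 2000 UMIs, which left out 41 cells. Within classes, rate ratios were combined by the Mantel-Haenszel method, with a normal interval of the log ratio. A gene was compared with 20 CPM or more in 1 set (7765 genes), and called higher or lower at 1.5-fold. Of these, 118 had counts in ending A alone and 82 in ending B alone. The text names all 10 enzymes and, from each list, genes past 1.5-fold the same way in both endings, up to 4 by the smaller ratio; some genes that meet this rule are not reported here. No count model was fitted, since a pooled matrix has no replicates. On simulated data for A3 over A1 and A2 (6700 genes), the summed-count step recovered the direction of 100.0% of the genes changed 1.5-fold, and its interval covered the ratio of 97.0% of them and of 94.0% of those changed 2-fold. For B3 over B1 and B2 (5749 genes), the Mantel-Haenszel interval covered 96.0% and 92.0%. The simulated counts were Poisson with the same ratio in all strata, as the intervals assume. They therefore check the calculation only, not spread between cells or ratios that differ between classes. Upstream sequence came from RefSeq (GRCm38.p6), with 250 bases before each listed start.

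The alternatives planned at the outset were the mean of per-cell CPM, cells without filtering, mitochondrial and ribosomal protein genes out of the denominator, suffix -1 or -2 alone as comparator, Gapdh left out, thinning to 1500 or 3000 UMIs, other classes, each ending alone and a 2-fold threshold. Those chosen after seeing the data were Eno1 left out, cells with little enterocyte or red cell RNA, single genes within cycling classes, and the count of called genes with single comparators or per-cell means.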

Additional observations from a re-analysis of the deposited data

Results flagged for a closer look

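The following results stood out because the endings went opposite ways: A3 lay below both A1 and A2, and B3 above both B1 and B2. The differences between endings (ending B minus ending A, in log2 ratio of the third set over the first and second) were 0.73 for Gapdh, 0.67 for Pgk1, 0.91 for Eno1, 0.92 for Pkm and 0.63 for the sum of the 10 enzymes. These differences were not tested, since neither ending has replicates. The same pattern was seen in 12.6% of the 7765 genes compared. In ending A within classes of cycling UMIs, in thinned cells, the ratios of Gapdh and Eno1 were still below 0, at -0.22 (-0.29 to -0.15) and -0.53 (-0.70 to -0.36). Those of Pgk1 and Pkm were 0.13 (-0.03 to 0.29) and 0.02 (-0.09 to 0.14). Thinning without classes gave 0.00 for Pgk1 and -0.17 for Pkm.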

How the results depend on the processing

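No paired analysis was possible because no label ties a cell to a sample, so sets share no replicate number. The ratio of the sum in ending A, -0.05 as reported, was 0.046 with the mean of per-cell CPM, 0.18 without Gapdh and 0.063 in cells with 2 or fewer enterocyte UMIs, each of the opposite sign, -0.12 with mitochondrial and ribosomal protein genes out of the denominator and -0.013 without Eno1. Its direction is thus not settled. In ending B, 0.57 became 0.49 with the same genes out of the denominator and 0.77 without Gapdh. Within cycling classes in ending A, 0.17 became 0.44 in cells with 0 cycling UMIs alone. At 4 or more cycling UMIs the sum was lower in A3 (3022 CPM) than in A1 (3377 CPM) and A2 (3417 CPM). The ratio by Pdgfra UMIs, 0.16, was 0.29 without Gapdh and, with a single ending, 0.048 in A and 0.24 in B. The ratio by cycling UMIs, -0.02, was -0.061 with thinning to 3000 UMIs, -0.22 without Gapdh, 0.017 within Pdgfra classes and, with a single ending, 0.31 in A and -0.26 in B. The 3 genes at least 1.5-fold higher in both A3 and B3 became 1 at 2-fold (Pfkp) and 5 with the mean of per-cell CPM, and stayed 3 with either comparator alone. Thinned and within cycling classes, Pgk1 (0.13) and Pkm (0.024) in ending A changed sign; thinning alone took Pgk1 to 0.00 and Pkm to -0.17. The causes were not tested, apart from what the settings leave out by construction. Without the cell filter, all 20 ratios of single enzymes moved by less than their counting error. Pfkp and Hk1 rest on the fewest UMIs (86 to 320 and 177 to 551 per set), and both reached 20 CPM only in the third sets.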
